A study of Mus musculus with 24 samples.

Results

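Glucose enters a muscle fibre through carriers of the SLC2A family and is trapped inside by hexokinases. The 7 genes described here cover that entry step in mouse quadriceps muscle: the carriers Slc2a1, Slc2a3 and Slc2a4, the hexokinases Hk1 and Hk2, and Tbc1d1 and Tbc1d4, which hold the vesicles of the Slc2a4 protein inside the cell. The 7 were chosen with earlier results of these data known. The platform annotation maps 1 probe set of its own to each of them, among 14754 genes in all. A further probe set, annotated to Tbc1d1 together with another gene, was left out because its signal cannot be given to either. Of the 7 genes, 3 (Slc2a1, Slc2a4 and Hk2) passed the filter on low values, a log2 intensity over 4 on at least 6 of the 24 arrays, which 5793 genes passed. Slc2a3, Hk1, Tbc1d1 and Tbc1d4 did not.

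The study fed male mice of the strain C57BL/6J (written C56BL/6J in the sample labels) a palm oil diet and profiled quadriceps RNA on Affymetrix mouse arrays, on which a set of short probes reads each gene. After 2 weeks on a growth diet and a run-in of 3 weeks on the low fat diet that began at 9 weeks of age, mice were assigned at random to low fat food (10% of the energy as palm oil) or high fat food (45%) for 3 or 28 days. Each of the 4 groups (low fat day 3, high fat day 3, low fat day 28 and high fat day 28) held 6 mice, 1 mouse to an array. Mice were 12 weeks old at day 3 and 16 weeks old at day 28, so time on the diet and age cannot be told apart, and every mouse, controls included, had eaten the low fat diet before. The comparisons ask how the muscle transcriptome differs between the diets after short and after long feeding.

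In resting muscle most of the Slc2a4 protein, known as GLUT4, sits in storage vesicles. Insulin, through the kinase Akt2, and contraction, through the energy sensor AMPK, lead to phosphorylation of the Rab GTPase-activating proteins Tbc1d4 and Tbc1d1, and the vesicles then move to the surface membrane. Slc2a1 (GLUT1) stays at the surface and carries glucose without insulin in many cell types, with high levels in endothelium, and Hk2 is the main hexokinase of skeletal muscle.

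Slc2a1 was the member that differed between the diets. Its log2 intensity was higher on high fat food by 0.69 ± 0.12 (SE) at day 3 and by 0.44 ± 0.12 at day 28. Slc2a4, the insulin-responsive carrier, differed by -0.19 ± 0.07 at day 3 and -0.08 ± 0.07 at day 28, and Hk2 by 0.13 ± 0.07 and 0.09 ± 0.07. Neither gene passed the test at either time. With limma over all 5793 genes and a call at a Benjamini-Hochberg adjusted p under 0.05, 861 genes (14.9%) were called at day 3. High fat food had the higher level in 463 of them (7.99%) and the lower level in 398 (6.87%). At day 28 the calls numbered 726 (12.5%), with 310 (5.35%) higher and 416 (7.18%) lower. Against that background, 1 of the 3 tested members was called at each time.

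Slc2a1 encodes the carrier that supplies glucose at rest. On low fat food at day 3 its log2 intensity ran from 3.74 over a median of 4.198 to 4.61, and on high fat food from 4.59 over 4.85 to 5.13. The group means were 4.16 ± 0.31 and 4.85 ± 0.20 (SD, n = 6). Here 5 of the 6 high fat mice lay above every low fat mouse, and replicate 2 of the high fat group lay just under replicate 2 of the low fat group. The difference amounted to 1.61-fold, with a 95% confidence interval of 0.44 to 0.94 on the log2 scale and a limma adjusted p of 0.000534. At day 28 the low fat mice ran from 4.18 over 4.34 to 4.44 and the high fat mice from 4.54 over 4.75 to 5.03, with means of 4.32 ± 0.11 and 4.76 ± 0.18 (SD, n = 6). The groups did not overlap at day 28, and the difference was 1.36-fold (0.19 to 0.69 on the log2 scale, limma adjusted p 0.0167).

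The diet difference of Slc2a1 was smaller at day 28 than at day 3 by 0.25 ± 0.17, which did not pass limma's test of the difference (value -0.25, adjusted p 0.444). Over all genes that test called 80 genes (1.38%). Between the days, the Slc2a1 level differed by 0.16 ± 0.12 on low fat food (limma adjusted p 0.532) and by -0.09 ± 0.12 on high fat food (0.799). Those comparisons called 20 genes (0.345%) and 32 genes (0.552%) over the whole table, none of them a member, and the lowest unadjusted p of a tested member there was 0.190. In order of their means the groups stood as low fat day 3, low fat day 28, high fat day 28 and high fat day 3. The step from low to high fat food in the middle of that order is the difference that passed the test at day 28, and the neighbours on either side of it did not pass the test between the days. Slc2a1 was read close to the floor of the filter, between 13.3 and 35.1 intensity units over the 24 arrays, and 22 arrays lay over it. At such values the size of the fold rests on the authors' background correction.

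**Figure D1:**
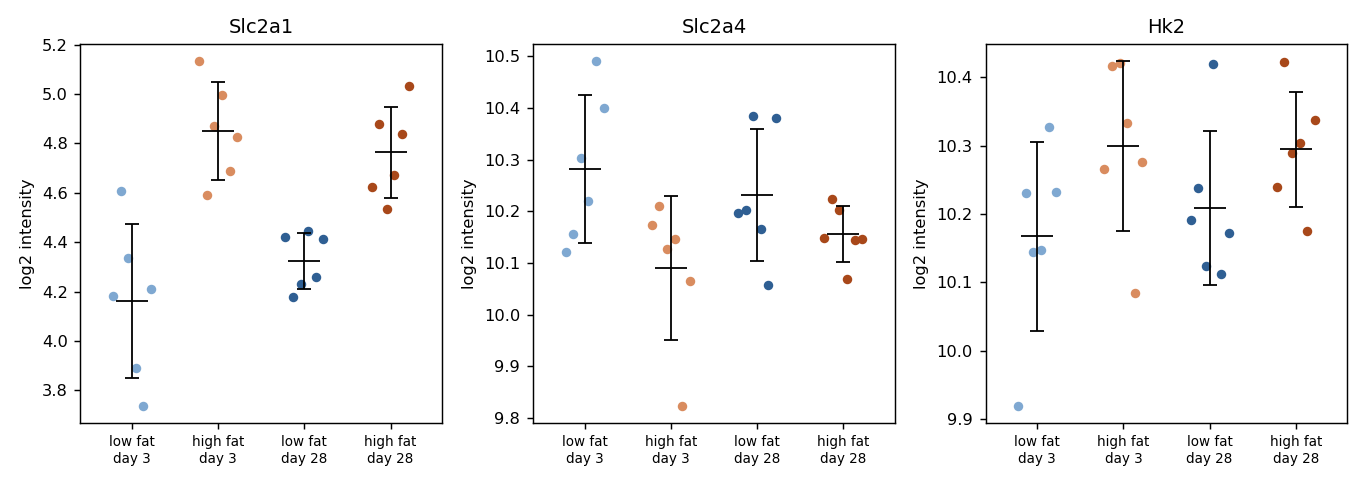
Log2 intensity (vertical axis, a scale of its own in each panel) of Slc2a1, Slc2a4 and Hk2 in the 4 groups of 6 mice. Each point is 1 array, and the line and bars are the mean ± SD. For Slc2a1 the high fat means (4.85 and 4.76) sit above the low fat means (4.16 and 4.32), and the diets overlap slightly at day 3. The diets overlap at both times for Slc2a4 and Hk2.

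Slc2a4 encodes GLUT4 itself. On low fat food at day 3 its log2 intensity ran from 10.12 over a median of 10.26 to 10.49, and on high fat food from 9.82 over 10.14 to 10.21. The means were 10.28 ± 0.14 and 10.09 ± 0.14 (SD, n = 6), and 2 of the 6 high fat mice lay below every low fat mouse. The difference of -0.19 had a 95% confidence interval of -0.34 to -0.04 and an unadjusted limma p of 0.0166, but its adjusted p was 0.0858. Without 1 array at a time the difference ran from -0.22 to -0.14 (limma adjusted p 0.0526 to 0.194). Replicate 5 held the highest Slc2a4 value in the low fat and the lowest in the high fat day 3 group. Without replicate 5 of both day 3 groups, a fit chosen after seeing the data, the difference was -0.096 (limma adjusted p 0.378). At day 28 low fat mice ran from 10.06 over 10.20 to 10.38 and high fat mice from 10.07 over 10.15 to 10.22, with means of 10.23 ± 0.13 and 10.16 ± 0.05. These groups overlapped throughout, and the interval of the difference, -0.23 to 0.08, leaves room for a change of either sign (limma adjusted p 0.568). The test of the diet difference between the days gave 0.12 ± 0.10 (limma adjusted p 0.583).

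Hk2 encodes the hexokinase that phosphorylates glucose in the muscle fibre. At day 3 its log2 intensity ran from 9.92 over a median of 10.19 to 10.33 on low fat food and from 10.08 over 10.30 to 10.42 on high fat food. The means were 10.17 ± 0.14 and 10.30 ± 0.12 (SD, n = 6), and 3 of the 6 high fat mice lay above every low fat mouse. The difference was 0.13 with an interval of -0.02 to 0.28 (limma adjusted p 0.222). At day 28 low fat mice ran from 10.11 over 10.18 to 10.42 and high fat mice from 10.18 over 10.30 to 10.42, which overlap. The difference of 0.09 had an interval of -0.06 to 0.23 (limma adjusted p 0.498), and the test between the days gave -0.05 ± 0.10 (0.846). Between the days the changes were 0.04 on low fat food and -0.00472 on high fat food, so the 4 group means of Hk2 lay within 0.132 of each other.

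**Figure D2:**
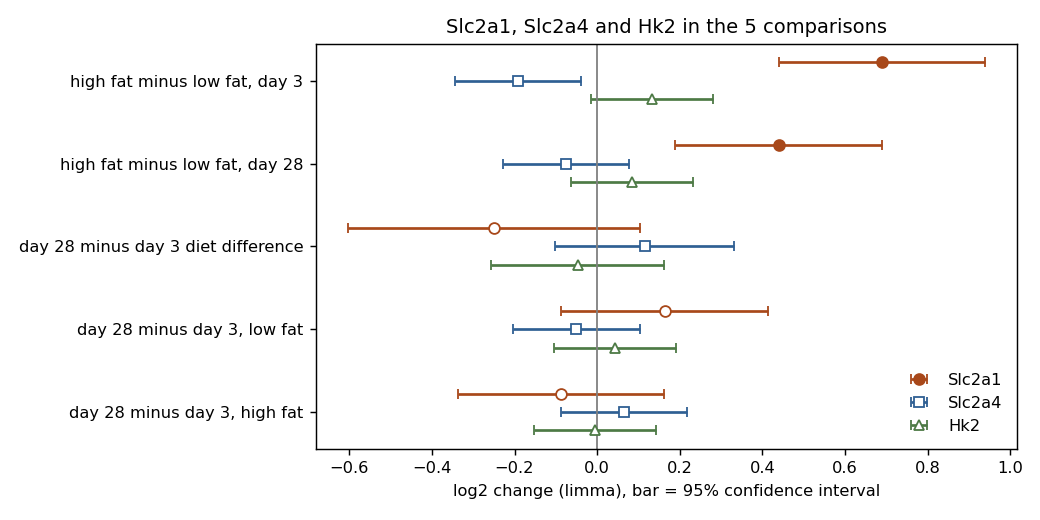
Log2 change with its 95% confidence interval (horizontal axis) of Slc2a1, Slc2a4 and Hk2 in the 5 comparisons, from limma. Filled markers passed an adjusted p under 0.05, which holds for Slc2a1 in both diet comparisons (0.69 and 0.44) and for no other value shown.

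The other 4 members gave signal near the bottom of the scale. Slc2a3 (GLUT3), a high-affinity carrier known from neurons, ran from 2.57 to 3.58 over the 24 arrays and exceeded a log2 intensity of 4 on 0 of them. Hk1, the hexokinase of brain and red cells, ran from 2.30 to 4.30 and exceeded 4 on 1 array, replicate 2 of the high fat day 28 group. Tbc1d1, the Rab regulator known to respond to contraction, ran from 2.47 to 4.38 and exceeded 4 on 1 array, replicate 1 of the low fat day 28 group. Tbc1d4, known as AS160 and an Akt substrate, ran from 2.83 to 3.45 and exceeded 4 on 0 arrays. Whether these probe sets read little transcript or bind it poorly was not tested.

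No diet or time pattern was detectable in them. The lowest and highest group means were 3.05 and 3.36 for Slc2a3, 2.97 and 3.26 for Hk1, 3.21 and 3.50 for Tbc1d1 and 3.03 and 3.24 for Tbc1d4. The pooled SD within groups was 0.269, 0.375, 0.494 and 0.171 in the same order, so each span of means was of the order of the spread between mice. When all 14754 genes were tested with no filter, limma called none of the 4 genes in any of the 5 comparisons (0 calls, adjusted p from 0.415 to 0.975), and 1 of those tests had an unadjusted p under 0.05 (0.0451). That fit called 789 genes (5.35%) at day 3 and 812 (5.50%) at day 28.

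**Figure D3:**
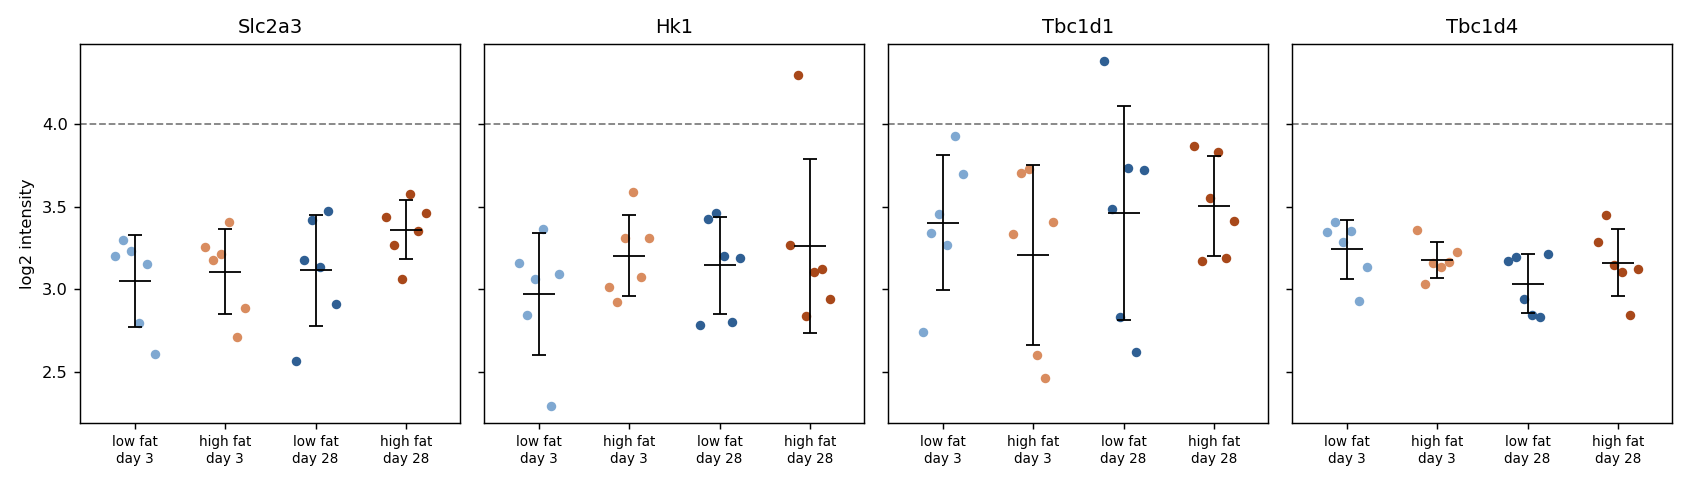
Log2 intensity (vertical axis, shared) of Slc2a3, Hk1, Tbc1d1 and Tbc1d4 in the 4 groups of 6 mice, with the mean ± SD as line and bars. The dashed line is the floor of 4, which 1 array of Hk1 (4.30) and 1 of Tbc1d1 (4.38) exceed.

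The promoter table (RefSeq, build GRCm38.p6) held windows for 5 of the 7 members. The 250 bases before the start are shown for Slc2a1, the member that rose, and for Hk2, the tested hexokinase that did not pass the test, so that the letters around both starts can be compared. Both are written 5′ to 3′ on the strand of the gene. Capitals mark the motifs found: CCAAT boxes (CCAAT or ATTGG), GC boxes (GGGCGG or CCGCCC) and the hypoxia response core (ACGTG or CACGT).
Slc2a1, chr4:119108495-119108744, plus strand: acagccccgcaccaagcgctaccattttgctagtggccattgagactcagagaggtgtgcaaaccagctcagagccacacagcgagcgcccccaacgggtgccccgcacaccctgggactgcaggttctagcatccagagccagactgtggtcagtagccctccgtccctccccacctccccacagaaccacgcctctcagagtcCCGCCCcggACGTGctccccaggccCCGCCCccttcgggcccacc
Hk2, chr6:82774455-82774704, minus strand: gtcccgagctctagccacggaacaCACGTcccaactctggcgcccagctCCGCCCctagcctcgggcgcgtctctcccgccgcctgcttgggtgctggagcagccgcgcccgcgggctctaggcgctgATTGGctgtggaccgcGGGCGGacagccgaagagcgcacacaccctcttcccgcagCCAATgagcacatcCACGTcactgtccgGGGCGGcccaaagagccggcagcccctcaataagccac

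In the Slc2a1 window, 2 GC boxes lay 45 to 40 and 20 to 15 bases before the start, with 1 hypoxia response core between them at 36 to 32 bases. The Hk2 window held 3 GC boxes, 2 CCAAT boxes and 2 hypoxia response cores. Neither window held a TATA box (TATAAA) or the element of oestrogen-related receptors (AAGGTCA) on either strand. Of 32851 windows of this length, 32.7% held a GC box, 33.8% a CCAAT box, 16.6% the hypoxia response core, 12.4% the TATA box and 4.08% the AAGGTCA element. The search covered both strands and allowed no mismatch, and no matches overlapped. A match describes letters only.

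By level over the 24 arrays, the genes most like Slc2a1 among the 5792 others tested were Slc25a34, a mitochondrial carrier (Pearson r 0.90), Nup133, a nuclear pore subunit (0.88), and Esrrg, an oestrogen-related receptor known from oxidative muscle (0.87). Spearman's rho was 0.86, 0.90 and 0.86 in the same order. Part of this likeness is the diet difference itself. Within the 12 low fat arrays r was 0.79, 0.63 and 0.64, and within the 12 high fat arrays 0.54, 0.62 and 0.65. On high fat food at day 3, Slc25a34 was higher by 0.92, Nup133 by 0.45 and Esrrg by 0.88, and all 3 were called by limma at both times. All these correlations share the arrays and their normalization.

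The means of the fast fibre, slow fibre and endothelial marker lists were higher on high fat food, as was Slc2a1. Fast fibre genes were bright on every array. The mean log2 intensity of 12 of them was 12.53 to 12.78 on low fat and 12.82 to 12.89 on high fat food at day 3. At day 28 it was 12.62 to 12.75 against 12.81 to 12.86. Of the 12 genes, 2 were called higher at day 3 and 1 at day 28, while 10 and 11 were not called. These shares, 16.7% and 8.33%, lay near the 14.9% and 12.5% of all genes. Their median change was -0.004 at day 3 and 0.04 at day 28. The mean of 10 slow fibre genes (of 12 listed, with a probe set for 10) lay between 4.34 and 7.53 on low fat food and between 8.39 and 10.8 on high fat food at day 3, and at 4.72 to 7.71 and 8.48 to 9.50 at day 28. Of these genes 10 rose at day 3 and 8 at day 28. The mean of 10 endothelial genes was 5.47 to 5.96 against 6.00 to 6.35 at day 3 and 5.70 to 5.85 against 5.94 to 6.23 at day 28, with 6 of 10 genes higher at day 3 and 1 at day 28. At day 28 the share of endothelial genes called, 10%, also lay near the 12.5% of all genes. The means of the fast fibre, slow fibre and endothelial lists did not overlap between the diets at either time.

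The fat and immune lists ran the other way. The mean of 8 adipocyte genes was 6.50 to 9.70 on low fat and 5.98 to 9.34 on high fat food at day 3, where 1 rose and 3 fell, and 8.46 to 10.2 against 5.77 to 6.83 at day 28, where 7 of 8 fell. Of 12 macrophage genes, 2 fell at day 3 (16.7%, near the 14.9% of all genes) and 12 at day 28. None of the 7 nerve genes with a probe set passed the filter (0 tested). In whole muscle, fewer cells of a type and less RNA per cell cannot be told apart.

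Slc2a1 lost both calls when the slow fibre or the endothelial mean entered the limma fit as a covariate. With the slow fibre mean, the Slc2a1 difference was 0.51 at day 3 (adjusted p 0.334) and 0.28 at day 28 (0.774). With the endothelial mean, an alternative chosen after seeing the data, it was 0.50 (0.180) and 0.29 (0.433). With the adipocyte mean, the day 3 call stayed (0.67, adjusted p 0.00365) and the day 28 call was lost (0.39, 0.544). Leaving out the 4 arrays of highest beta-actin 3′ over 5′ ratio, a measure of RNA quality, also ended the day 28 call (0.41, adjusted p 0.0836). That log2 ratio ran from -0.19 to 0.37 over the arrays. Whether the call was lost through RNA quality or through fewer arrays was not tested. Slc2a4, by contrast, was called lower at day 3 with the endothelial mean in the fit (-0.47, limma adjusted p 0.0231), and the Hk2 differences turned sign there (-0.0501 at day 3 and -0.0559 at day 28). Because the slow fibre and endothelial means did not overlap between the diets, diet and these lists cannot be told apart in the Slc2a1 difference.

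**Figure D4:**
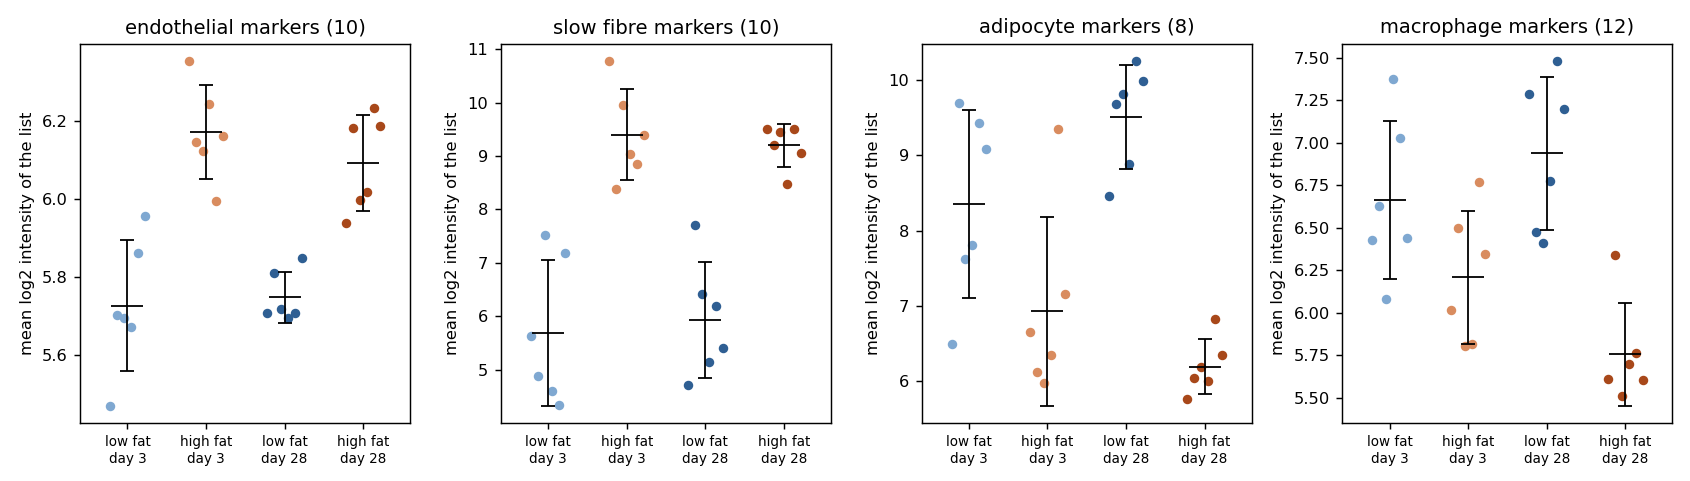
Mean log2 intensity (vertical axis, a scale of its own in each panel) of the tested endothelial, slow fibre, adipocyte and macrophage genes on each array of the 4 groups of 6 mice, with the mean ± SD. Endothelial and slow fibre means are higher on high fat food at both times with no overlap, and adipocyte means at day 28 are lower (5.77 to 6.83 against 8.46 to 10.2).

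Around the 7 members stand the genes that supply, move, tether and fuse GLUT4 vesicles, set the signals to them, or control transcription of Slc2a4 and Hk2. Of 166 such genes listed, 133 had a probe set and 94 were tested. At day 3, 4 were higher and 11 lower on high fat food, 16.0% of those tested against the 14.9% of all genes. At day 28, 4 were higher and 10 lower, 14.9% against 12.5%. The median change of the 94 genes was -0.06 and -0.01 at the 2 times, beside -0.01 and 0.01 over all genes. These shares lie near the background, so the lists as a whole did not stand out. The calls of the 2 times fell on 27 genes, of which 2, Vamp8 and Exoc7, were called at both. How many of all genes were called at both times was not counted, so this overlap has no background beside it.

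Among 2 other sugar carriers tested, Slc2a8, an intracellular hexose carrier, was lower at day 3 by 0.25 ± 0.09 (value -0.25, limma adjusted p 0.0493). It was read close to the floor of the filter, at 4.21 to 4.48 on low fat and 3.89 to 4.25 on high fat food at that time. Its call was lost without any of 19 of the 24 arrays in turn (adjusted p up to 0.108). None of the 5 other genes of the glucose phosphorylation step passed limma's test in either diet comparison (0 calls; 0 and 1 of them at an unadjusted p under 0.05), with median changes of -0.06 and 0.01.

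Tbc1d1 and Tbc1d4 act on small GTPases of the Rab family, and this list also held genes outside that family, such as Rac1 and Rapgef1. Of 15 tested genes of this list, Rac1, which drives cortical actin in insulin-stimulated muscle, fell at day 3 by 0.19 ± 0.05 (limma adjusted p 0.0208). At day 28 Rab8b fell by 0.73 ± 0.15 (0.00246), while Rapgef1, an exchange factor for Rap GTPases, rose by 0.31 ± 0.08 (0.0163). Rab8b ran from 6.02 to 6.86 on low fat and from 5.35 to 6.01 on high fat food, without overlap. The Rac1 call was lost without replicate 5 of the low fat day 3 group (-0.16, adjusted p 0.0541), with no filter (0.0509), with the adipocyte mean (0.0602), without the 4 arrays of highest beta-actin ratio (0.0612) and with only the arrays compared in the fit (0.0640). The Rapgef1 call was lost under the last 2 of these settings (adjusted p 0.0848 and 0.0598) and with the adipocyte mean (0.419).

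Of 14 tested genes of vesicle fusion, Vamp8, a vesicle SNARE, was the one higher on high fat food at both times. Its log2 intensity was 7.73 to 8.04 on low fat and 8.20 to 8.51 on high fat food at day 3, and 7.56 to 8.15 against 8.17 to 8.44 at day 28. The groups did not overlap at either time, and the differences were 0.52 ± 0.08 (limma adjusted p 0.000237) and 0.49 ± 0.08 (0.00034). Stx6, a SNARE of the trans-Golgi network, rose at day 3 by 0.30 ± 0.08 (0.0141), and at day 28 its difference was -0.24 ± 0.08 (0.0565). The difference between those effects was -0.54 ± 0.11 (limma adjusted p 0.0286) and was lost without low fat day 28 replicate 5 (-0.54, 0.0508) or high fat day 28 replicate 2 (-0.53, 0.0521). Stx6 was read close to the floor of the filter, at 3.86 to 4.24 on low fat and 4.19 to 4.49 on high fat food at day 3. At day 28 its ranges were 4.04 to 4.52 and 4.04 to 4.24. Napa, the adaptor of the SNARE recycling ATPase, fell at day 3 by 0.29 ± 0.09 (0.0250) and Vti1a, another SNARE of the trans-Golgi network, by 0.24 ± 0.06 (0.00976), while the endosomal syntaxin Stx7 fell at day 28 by 0.32 ± 0.07 (0.00445). The Napa call was lost without low fat day 3 replicate 5 (-0.22, adjusted p 0.0664). Vti1a was dim as well, at 4.85 to 4.95 on low fat and 4.52 to 4.82 on high fat food at day 3.

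Of 15 tested genes listed as vesicle cargo, tethers and coats, 2 fell at day 3 and a different pair at day 28. Sort1 encodes sortilin, a sorting receptor of GLUT4 storage vesicles. It ran from 5.76 over 5.93 to 6.71 on low fat and from 4.93 over 5.29 to 5.82 on high fat food at day 3, a fall by 0.71 ± 0.15 or 1.63-fold (limma adjusted p 0.00283). Ubxn4, which stood in this list, encodes a protein of the endoplasmic reticulum with a UBX domain, and the UBX-domain tether of GLUT4 vesicles is Aspscr1. Without Ubxn4, 1 gene of the list fell at day 3. Ubxn4 fell by 0.31 ± 0.10 (0.0299), a call lost without replicate 5 of the low fat (-0.27, 0.0766) or of the high fat day 3 group (-0.23, 0.0673). At day 28 Gga2, a clathrin adaptor at the trans-Golgi network, fell by 0.50 ± 0.08 (0.000115), from 6.81 to 7.12 on low fat to 6.27 to 6.64 on high fat food with no overlap. Lrp1, a receptor found in GLUT4 vesicles, fell by 0.37 ± 0.11 (0.0272), and leaving out any of 5 arrays (low fat day 28 replicates 3, 4 and 5, high fat day 28 replicates 1 and 3) gave adjusted p between 0.0531 and 0.0742.

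Exoc7, a subunit of the exocyst that docks vesicles at the membrane, had the smallest adjusted p at day 3 among the 13 motor, exocyst and actin genes tested. On low fat food at day 3 its log2 intensity was 9.06 to 9.32, and on high fat food 8.26 to 8.61. At day 28 the ranges were 8.78 to 9.08 and 8.47 to 8.76, again with no overlap. It fell by 0.80 ± 0.08 at day 3 (limma adjusted p 5.88e-07) and by 0.35 ± 0.08 at day 28 (0.0039). The fall was smaller at day 28 by 0.45 ± 0.11 (adjusted p 0.0406), though this difference missed the threshold without 15 of the 24 arrays in turn (up to 0.0792). Tmod3, which caps actin filaments, rose at day 3 by 0.51 ± 0.12 (0.00495), and Exoc6, another exocyst subunit, rose at day 28 by 0.36 ± 0.10 (0.0169). Tmod3 was dim, at 4.28 to 4.86 on low fat and 4.77 to 5.51 on high fat food at day 3.

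Akt2 is the insulin-activated kinase that phosphorylates Tbc1d4. On low fat food at day 3 it ran from 8.21 over 8.34 to 8.47 and on high fat food from 7.78 over 7.85 to 8.06, without overlap, a fall by 0.44 ± 0.06 or 1.36-fold (limma adjusted p 5.01e-05). At day 28 the ranges were 8.03 to 8.19 and 7.90 to 8.25, and the difference of -0.05 ± 0.06 did not pass the test (0.697). The difference between the days, 0.40 ± 0.09, was called (limma adjusted p 0.0286), and was lost without high fat day 3 replicate 1 (0.0515), low fat day 28 replicate 5 (0.0570) or high fat day 28 replicate 2 (0.0585). Leaving out any single array kept the day 3 call, and the slow fibre mean (-0.35, adjusted p 0.178) or the endothelial mean (-0.35, 0.0725) as a covariate ended it.

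Of the 15 tested signal inputs 3 were called at day 3 and 4 at day 28 (20% and 26.7%, against 14.9% and 12.5% of all genes). Of these 7 genes the 6 of smallest p are given. At day 3 Ywhag fell by 0.19 ± 0.05 (limma adjusted p 0.0177) and Ywhaz rose by 0.34 ± 0.10 (0.0287). Both encode adaptors that bind phosphorylated proteins, as does Ywhab, which fell at day 28 by 0.61 ± 0.14 (0.00425). At day 28 Flot1, a scaffold of membrane rafts, rose by 0.24 ± 0.07 (0.0234). Lgals3, a lectin abundant in macrophages, fell by 2.25 ± 0.42 or 4.74-fold (0.000954), beside the fall of the 12 macrophage genes, and its part in that list's change was not tested. The Ywhaz call was lost without low fat day 3 replicate 5 (0.25, adjusted p 0.0718), high fat day 3 replicate 1 (0.34, 0.0502) or replicate 5 (0.30, 0.0622). The Flot1 call was lost without any of 5 day 28 arrays (low fat replicates 1 and 6, high fat replicates 2, 5 and 6), with adjusted p up to 0.0595.

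Of 15 tested regulators of Slc2a4 or Hk2 transcription, 2 fell at each time and none rose. Klf15, a transcription factor known to raise Slc2a4 expression, ran from 8.63 over 8.75 to 9.55 on low fat and from 7.22 over 7.83 to 7.98 on high fat food at day 3. The groups did not overlap, and the fall was 1.21 ± 0.16 or 2.31-fold (limma adjusted p 1.98e-05). At day 28 its difference was -0.33 ± 0.16 (0.193). The difference between the days was 0.88 ± 0.22 (limma adjusted p 0.0457), which missed the threshold without 19 of the 24 arrays in turn (up to 0.0836). From day 3 to day 28 Klf15 changed by -0.65 ± 0.16 on low fat food (limma adjusted p 0.0654) and by 0.23 ± 0.16 on high fat food (0.524). Mef2d, a member of the MEF2 family that binds the Slc2a4 promoter, fell at day 3 by 0.48 ± 0.13 (0.0174). It was dim, at 4.86 to 5.53 on low fat and 4.38 to 5.04 on high fat food at that time. Slc2a4 itself, as given above, did not pass the test at day 3.

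At day 28 Cebpa fell by 3.36 ± 0.48 or 10.3-fold (limma adjusted p 6.24e-05), and Pparg fell by 2.51 ± 0.40 or 5.69-fold (0.000194). Both are known as transcription factors of fat cells. Cebpa ran from 5.11 to 7.71 on low fat and from 2.93 to 3.77 on high fat food. Pparg ran from 3.74 to 6.27 and from 2.37 to 3.05. On high fat food 0 of the 6 values of either gene lay over the floor of 4, and on low fat food 5 of the 6 Pparg values did. The size of both falls therefore rests on the authors' background correction. They moved with the adipocyte list, of which 7 of 8 genes fell, and with that list's mean in the fit their differences were -0.54 (adjusted p 0.565) and -0.46 (0.734).

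**Figure D5:**
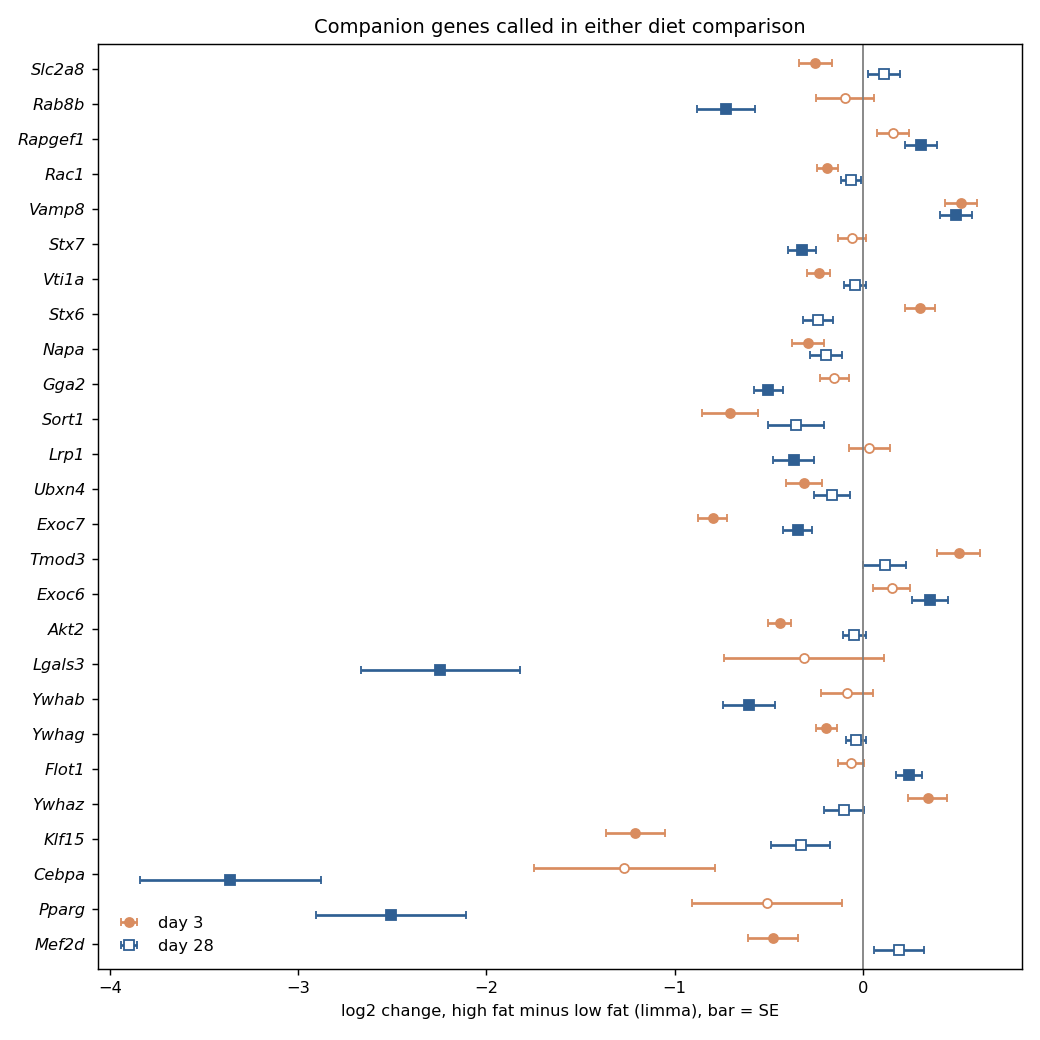
Log2 change, high fat minus low fat, with its standard error (horizontal axis) of the named genes around the GLUT4 pathway at day 3 (circles) and day 28 (squares), from limma. Filled markers passed an adjusted p under 0.05. Vamp8 (0.52 and 0.49) and Exoc7 (-0.80 and -0.35) are filled at both times, and Cebpa (-3.36) and Pparg (-2.51) lie farthest from 0 at day 28.

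Fewer genes of these lists were called with the slow fibre or endothelial mean in the fit than when any single array was left out. The same held over all genes, where the slow fibre mean took the calls from 861 to 17 at day 3 and from 726 to 26 at day 28. Those means did not overlap between the diets, so diet and these markers cannot be told apart in the lost calls. Leaving out 1 array at a time gave 10 to 17 called genes of the lists at day 3 and 12 to 15 at day 28. With the slow fibre mean in the limma fit 2 of them were called at each time. With the adipocyte mean none was called at day 28 (0 calls, 10 at an unadjusted p under 0.05), and with the endothelial mean 4 were called at day 3 and 6 at day 28. Vamp8 stayed called at both times with the slow fibre mean (0.68, adjusted p 0.0417, and 0.63, 0.0443), and so did Exoc7 at day 3 (-0.66, 0.0302) and Pparg at day 28 (-2.96, 0.0461). Every other named diet call of these lists was lost there. Other planned settings ended further calls. With the adipocyte mean, the calls lost at day 3 included Napa (limma adjusted p 0.0810), Vti1a (0.0585) and Rac1 (0.0602). Without the 4 arrays of highest beta-actin ratio these were Slc2a8 (adjusted p 0.0981), Napa (0.0967), Ubxn4 (0.0717), Lrp1 (0.0705) and Flot1 (0.118). With only the arrays compared they were Slc2a8 (0.0785), Ubxn4 (0.0782), Ywhag (0.0650) and Ywhaz (0.0654). With array weights they were Slc2a8 (0.0996), Napa (0.0505), Ubxn4 (0.0969) and Ywhaz (0.0887), and with no filter Slc2a8 (0.0921), Ubxn4 (0.0564) and Ywhaz (0.0527). Quantile normalization ended the Lrp1 call (0.0520) and the offset of 16 the Slc2a8 call (0.0864). The diet effect differed between the days for 4 of the 94 genes (4.26%, against 1.38% of all genes), namely Stx6, Exoc7, Akt2 and Klf15. All 4 missed the threshold with no filter, with the adipocyte mean and without the 4 arrays of highest beta-actin ratio, at limma adjusted p between 0.0524 and 0.148.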

How the data were processed

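The deposited values are linear intensities, 1 for each probe set on each array, which the authors made with GCRMA per the submitters' processing notes. GCRMA corrects background by probe sequence, so values of dim genes depend on that model. Its version and the probe definition are not given in the sources used here. Log2 was taken with no offset. Intensities ran from 0.881 to 20520, and arrays correlated at 0.978 to 0.995. Of 16361 probe sets, 14771 had 1 gene symbol in the platform annotation. Where a gene had several, the one of highest mean was used. The number of arrays limits the precision.

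A model of 4 group means was fitted in limma 3.58.1 (R 4.3.3) to 24 arrays (20 residual degrees of freedom), two-sided, with Benjamini-Hochberg adjustment over 5793 genes. The p-values measure the spread between mice. Each group had its own range of mouse numbers, and whether that marks separate batches of animals was not tested. The extraction protocol of low fat day 3 replicate 1 does not name the DNase step. The main fit did not pair arrays by replicate number.

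Members and lists were chosen with earlier results of these data known. Named were the 7 members, companions called in either diet comparison (at most 6 per list, by p), and the 3 genes most correlated with each called member.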

Additional observations from a re-analysis of the deposited data

Results flagged for a closer look

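In groups of 6 arrays, the highest or lowest value was compared with its nearest neighbour (Dixon's critical value 0.625). Of 132 groups of values from 33 genes, 14 held a value that far apart, and chance gives about 1 in 20.

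Among the members, Slc2a4 was lowest in high fat day 3 replicate 5 (9.82) and Hk1 highest in high fat day 28 replicate 2 (4.30). Low fat day 3 replicate 5 held the highest value of its group for Napa (7.30), Sort1 (6.71) and Ubxn4 (8.03) and the lowest for Ywhaz (6.67). High fat day 3 replicate 5 held the lowest Flot1 (7.33) and the highest Pparg (5.24). The other values far from their group were Slc2a8 in high fat day 28 replicate 6 (4.73), Stx6 in low fat day 28 replicate 1 (4.04), Napa in high fat day 3 replicate 2 (6.81) and high fat day 28 replicate 6 (7.10), Sort1 in high fat day 28 replicate 3 (5.78) and Ywhab in low fat day 3 replicate 2 (8.03).

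The diet effect differed between the days by limma's test of that difference (day 28 minus day 3) for Stx6 (-0.54, adjusted p 0.0286), Exoc7 (0.45, 0.0406), Akt2 (0.40, 0.0286) and Klf15 (0.88, 0.0457).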

How the results depend on the processing

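At day 3, 861 genes were called. The count was 17 with the mean of the slow fibre genes added to the fit, 162 with the endothelial mean, 507 with only the arrays compared in the fit, and 678 to 883 without 1 array. Of the companion genes, 15 were called, against 2 with the slow fibre mean, 4 with the endothelial mean, 8 without replicate 5 of both day 3 groups and 10 to 17 without 1 array. At day 28 the 726 calls became 26 with the slow fibre mean, 32 with the adipocyte mean, 196 with the endothelial mean and 593 to 804 without 1 array, and the 14 companion calls became 2, 0, 6 and 12 to 15. Quantile normalization moved the share of higher calls at day 28 from 42.7% (310 of 726) to 52.8% (401 of 760).

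The 80 calls of the difference between the days became 6 with no filter, 278 with array weights, 176 with the replicate block, 9 with the adipocyte mean, 6 without the 4 arrays of highest beta-actin ratio and 19 to 115 without 1 array. On low fat food the 20 calls between days became 40 with quantile normalization, 3 with no filter, 132 with array weights, 32 with the replicate block, 33 with the slow fibre mean, 0 with the adipocyte mean, 0 without the high-ratio arrays, 0 with only the arrays compared (620, 708 and 862 at an unadjusted limma p under 0.05), 112 without replicate 5 of both day 3 groups and 0 to 59 without 1 array. On high fat food the 32 calls became 9 with no filter, 106 with array weights, 18 with the slow fibre mean, 19 with the adipocyte mean, 12 with the endothelial mean, 5 without the high-ratio arrays and 3 to 51 without 1 array. The cause was not tested.

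The Slc2a1 calls held without any single array (adjusted p 0.000118 to 0.00213 at day 3 and 0.00811 to 0.0478 at day 28). Slc2a1 had no value under the stricter filter (log2 over 6), which it did not pass. Changes of sign were limited to values that missed the threshold: Hk2 with the endothelial mean (-0.0501 at day 3, -0.0559 at day 28, 0.0273 between days on high fat food) and without the high-ratio arrays (0.0218 on high fat food). Without 1 array, Hk2 ran from -0.0477 to 0.0195 between days on high fat food, -0.00738 to 0.0742 on low fat food and -0.0898 to 0.00265 for the difference of the diet effects. Akt2 at day 28 turned to 0.0328, 0.0345 and 0.0285 with the slow fibre, adipocyte and endothelial means. Of same-numbered arrays, 15 of 36 pairs correlated over 0.1 in their deviations (median 0.07), beside 52 of 180 pairs of other numbers (median -0.01). Whether a number marks a shared source was not tested. With the replicate block the Slc2a1 adjusted p was 0.0016 and 0.0276, and the Slc2a8 call was lost (0.0578). The endothelial mean and the fit without replicate 5 of both day 3 groups were chosen after seeing the data.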
